A study of Mus musculus with 228 samples.

Results

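The Smoc2-positive granule cells were the 16 of 47 control granule cells chosen by a Smoc2 level of at least 10 CPM (reads of a gene per 1000000 reads of the cell), and they are set against the 31 Smoc2-negative control granule cells below that level. Both classes belong to the group EGFP GC, which the quality-controlled count table of hippocampal neurons holds beside 3 other groups, Ascl4 GC (51 cells), Ascl4 CA1 (45 cells) and EGFP CA1 (46 cells). Each EGFP GC library came from the contents of 1 neuron drawn into a patch pipette in an acute slice of ventral hippocampus from a Calb1-Cre mouse aged 3 to 4 months, 1 month after microinjection of Cre-dependent AAV-EGFP alone. The Ascl4 groups carried the same EGFP virus plus AAV-Ascl4, and the CA1 groups came, per the series text, from Nex-Cre mice. All EGFP GC cells therefore carried the Cre driver and the EGFP virus, and no uninfected cell is among them. The labels name no animal, so the cells were not treated as replicates of a condition, EGFP GC counted as 1 sample, and no p-value or standard error is given. The series text states 53 EGFP GC cells past quality control, whereas the table holds 47.

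Granule cells are the principal excitatory neurons of the dentate gyrus and send mossy fibres to CA3. Smoc2 encodes a secreted calcium-binding matrix protein of the SPARC family that has been linked to growth factor signalling at the cell surface. Cxcl12 encodes a secreted chemokine that acts through the receptor CXCR4, is bound by the scavenging receptor ACKR3, and is known in the dentate gyrus for its part in granule cell positioning and neurogenesis.

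Smoc2 alone decided the class of a cell, so its values describe the choice and carry no test. Per cell, Smoc2 had a lowest value of 80.6, a median of 282 and a highest value of 1086 CPM in Smoc2-positive cells, against 0, 0.277 and 9.53 CPM in Smoc2-negative cells. No cell lay between 9.53 and 80.6 CPM. The lowest Smoc2-positive cell held 428 Smoc2 reads, whereas the highest Smoc2-negative cell held 41 and the next one 32. Of the 31 Smoc2-negative cells, 18 had at least 1 Smoc2 read. Smoc2 lies on chromosome 17 at 14279506 to 14404790 on the plus strand (GENCODE annotation of GRCm38). In the other groups no cell reached 10 CPM, and the highest cell had 3.09 CPM in Ascl4 GC, 2.00 CPM in Ascl4 CA1 and 0.593 CPM in EGFP CA1. For Ascl4 GC, 0 of 51 cells allows a share of up to 6.98% by the exact Clopper-Pearson 95% interval, which covers counting error alone.

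Cxcl12 did not mark the Smoc2-positive cells. It reached 10 CPM in 3 of 16 Smoc2-positive cells (18.8%, exact Clopper-Pearson 95% interval 4.05% to 45.6%), against 13 of 31 Smoc2-negative cells (41.9%, 24.5% to 60.9%). These intervals overlap, and they cover counting error only. Per cell, Cxcl12 had a lowest value of 0, a median of 0.323 and a highest value of 160 CPM in Smoc2-positive cells, against 0, 0.980 and 1359 CPM in Smoc2-negative cells. The 3 Smoc2-positive cells with Cxcl12 had 131.4, 138.7 and 160.3 CPM, all under the median of 522 CPM among the 13 Smoc2-negative cells with it, which ran between 16.3 and 1359 CPM. The ranges of the classes overlapped, and the cells with the most Cxcl12 were all Smoc2-negative. In summed reads Cxcl12 stood at 26.5 CPM in Smoc2-positive cells and 195.6 CPM in Smoc2-negative cells, a log2 ratio of -2.84. That ratio was -0.96 in the cells with title numbers 1 to 20 (3 Smoc2-positive and 12 Smoc2-negative) and -3.63 in those numbered 61 to 100 (13 and 19). The labels do not call these runs of numbers batches. Cxcl12 lies on chromosome 6 at 117168535 to 117181367 on the plus strand.

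Taken by both genes at 10 CPM, the 47 cells divided into 3 with both, 13 with Smoc2 only, 13 with Cxcl12 only and 18 with neither. The largest set was thus the one with neither gene, and the overlap held the fewest cells. Each gene reached 10 CPM in 16 of the 47 cells. Such shares alone favour that order of the sets, so the order says nothing particular about the pair. Cells with both genes occurred in either run of title numbers, 1 in the first and 2 in the second. No cell of Ascl4 GC reached 10 CPM of Cxcl12, and the highest had 5.35 CPM.

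**Figure D1:**
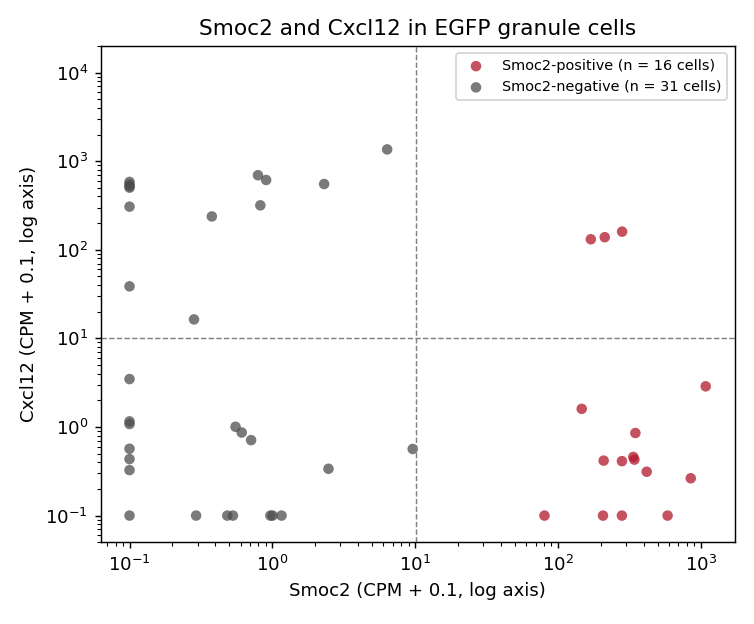
Smoc2 (horizontal) and Cxcl12 (vertical) of each EGFP granule cell, both in CPM plus 0.1 on log axes; red points are the 16 Smoc2-positive cells, grey points the 31 Smoc2-negative cells, and dashed lines mark 10 CPM. There are 3 cells past both lines, and the Smoc2 axis is empty between 9.53 and 80.6 CPM.

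The receptors of CXCL12 were scarce in either class. Cxcr4 had no read in any Smoc2-positive cell and reached at most 0.233 CPM in a Smoc2-negative cell. Ackr3 stood at 27.5 CPM in Smoc2-positive cells and 23.5 CPM in Smoc2-negative cells, and 3 and 2 cells reached 10 CPM. Smoc1, the closest relative of Smoc2, had at most 0.240 CPM in a Smoc2-positive cell, while 1 Smoc2-negative cell had 615 CPM. These 3 genes were picked after their values were seen.

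The classes also differed in how many genes their libraries held, and every gene value below stands beside that difference. After each cell was thinned to 500000 reads, the genes with a read numbered 3602 at the lowest, 5299.5 at the median and 6881 at the highest in Smoc2-positive cells, against 1975, 3871 and 5563 in Smoc2-negative cells. Genes at 10 CPM or more per cell had medians of 3619.5 in Smoc2-positive cells and 2056 in Smoc2-negative cells. Total reads per cell ran between 1080049 and 12139186 in Smoc2-positive cells and between 1638018 and 7539318 in Smoc2-negative cells. The ranges overlapped, but 12 Smoc2-negative cells fell under the lowest Smoc2-positive cell in thinned genes. The mitochondrial share of reads was alike, with medians of 0.499% and 0.525%. Whether the number of genes accounts for any gene difference was not tested as a cause, but each comparison was repeated with the 19 Smoc2-negative cells that had at least 3602 genes, whose own median was 4498. Genes at 10 CPM or more had a median of 2739 in these cells, still under the 3619.5 of Smoc2-positive cells. The repeat therefore does not match the classes in the number of genes.

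**Figure D2:**
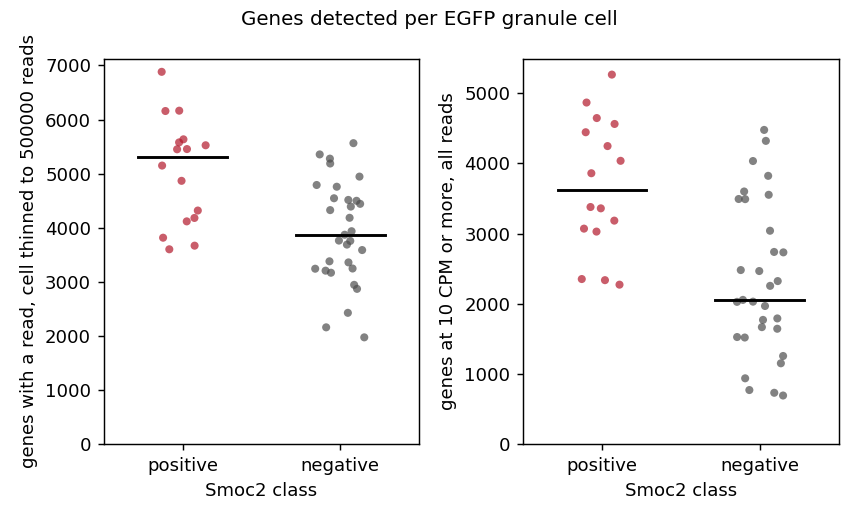
Genes with a read after thinning to 500000 reads (left) and genes at 10 CPM or more in all reads (right) for each EGFP granule cell, by Smoc2 class; points are cells and lines are medians. The medians are 5299.5 for Smoc2-positive and 3871 for Smoc2-negative cells on the left, and 3619.5 and 2056 on the right.

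Across the transcriptome, 9596 genes other than Smoc2 counted as expressed, meaning a read in at least 25% of the cells of 1 class and 10 CPM of summed reads in 1 class. A gene counted as past 2-fold when the log2 ratio of Smoc2-positive over Smoc2-negative cells, with 1 CPM added to each side, was at least 1 or at most -1 in the summed reads, in the mean of per-cell CPM and in that mean without the highest cell of each class. By that rule 1723 genes (17.96%) were higher in Smoc2-positive cells and 1312 genes (13.67%) were lower. The sign was the same in both runs of title numbers for 1230 of the higher and 1025 of the lower genes. The runs together make up the summed reads of that rule, so part of this agreement is built in. Over all expressed genes the median log2 ratio was 0.06 and its standard deviation 1.78, and within the first run, with 3 Smoc2-positive cells, the standard deviation was 3.19. Against the 19 gene-rich Smoc2-negative cells the counts were 1658 higher and 1259 lower. The balance between the directions turned with the authors' normalized signal (1588 higher, 1900 lower), within the first run of title numbers (1193 and 1845) and without the 4 deepest cells (1508 and 1575). With no replicate samples, these counts describe how these cells differed and not how the classes differ across animals.

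The 15 higher genes whose share of cells at 10 CPM differed most were Iscu, Akap8l, Nol7, Tsnax, Fyco1, Sh3gl2, Wdr18, Trappc1, Mcf2l, Parp6, Ints11, Mta2, Rars2, Asns and Tmem199. They reached 10 CPM in 10 to 16 Smoc2-positive cells, against 2 to 11 Smoc2-negative cells, and their log2 ratios lay between 1.07 and 3.52. In the first run of title numbers Iscu (0.57), Sh3gl2 (0.35) and Mcf2l (0.83) were under a log2 ratio of 1. In the second run Tsnax (0.93), Fyco1 (0.22) and Asns (0.55, but 8.18 in the first) were under it. The others were above it in both runs. Iscu is the scaffold for iron-sulfur cluster assembly, Sh3gl2 (endophilin A1) acts in synaptic vesicle endocytosis, Trappc1 belongs to a vesicle tethering complex, Ints11 is the nuclease of the Integrator complex, Mta2 is a subunit of the NuRD complex, Rars2 charges mitochondrial arginine tRNA and Asns makes asparagine. Against the gene-rich Smoc2-negative cells, 9 of the 15 stayed past 2-fold and 6 did not, namely Iscu (0.73), Tsnax (0.98), Fyco1 (0.27), Ints11 (0.57), Asns (0.97) and Tmem199 (0.94), each as a log2 ratio.

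Akap8l encodes a nuclear protein related to AKAP95. Its lowest, median and highest values were 0.376, 717 and 1676 CPM in Smoc2-positive cells, against 0, 1.66 and 1278 CPM in Smoc2-negative cells. It reached 10 CPM in 15 of 16 Smoc2-positive cells and 8 of 31 Smoc2-negative cells, so that most cells of each class lay on opposite sides of that level while the ranges overlapped. In summed reads it stood at 604 CPM in Smoc2-positive and 122.9 CPM in Smoc2-negative cells, a log2 ratio of 2.29, which was 2.48 and 2.16 in the runs of title numbers and 2.38 against the gene-rich Smoc2-negative cells.

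Iscu reached 10 CPM in 15 of 16 Smoc2-positive and 7 of 31 Smoc2-negative cells, the largest difference in share among the 15 genes. Its lowest, median and highest values were 0, 146.6 and 413 CPM in Smoc2-positive cells, against 0, 0.821 and 591 CPM in Smoc2-negative cells. The highest Smoc2-negative cell thus exceeded every Smoc2-positive cell, and the summed levels, 140 and 60.1 CPM, differed by a log2 ratio of 1.21. That ratio was 0.57 in the first run of title numbers and 1.57 in the second. By the overlap of the cells at 10 CPM with the Smoc2-positive cells (Jaccard index, over 47 cells), the 5 most similar genes were Iscu (0.652), Tardbp (0.636), Akap8l (0.625), Nol7 (0.600) and Tsnax (0.593). Tardbp, which encodes the RNA-binding protein TDP-43, reached 10 CPM in 14 Smoc2-positive and 6 Smoc2-negative cells but was between the limits in summed reads, with 164.8 CPM in Smoc2-positive and 126.7 CPM in Smoc2-negative cells.

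Mta2 had the largest log2 ratio of the 15, at 3.52, with 162.5 CPM in Smoc2-positive and 13.2 CPM in Smoc2-negative cells. Its lowest, median and highest values were 0, 64.4 and 578 CPM in Smoc2-positive cells, against 0, 0.238 and 309 CPM in Smoc2-negative cells. Cells at 10 CPM numbered 10 and 2, so a minority of Smoc2-positive cells lay with the Smoc2-negative majority. The ratio was 1.84 in the first run of title numbers and 6.29 in the second.

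The 15 lower genes were Ppm1b, Tut4, Mga, Suz12, Wdr74, Acsl6, Kdm4c, Cxcl12, Exoc6b, Usp25, Fastkd2, Lrrc42, Exosc3, Krt9 and Ankrd16. They reached 10 CPM in 0 to 3 Smoc2-positive cells, against 7 to 14 Smoc2-negative cells, and their log2 ratios lay between -6.62 and -2.34. All 15 stayed past 2-fold against the gene-rich Smoc2-negative cells. Both sets of 15 were picked in these same cells, and that repeat left the Smoc2-positive cells unchanged. Staying past 2-fold is therefore no separate support for either set. Suz12 is a core subunit of Polycomb repressive complex PRC2, Kdm4c is a histone demethylase, Mga is a transcription factor that pairs with MAX, Tut4 adds uridines to RNA, Exosc3 belongs to the RNA exosome and Fastkd2 acts on mitochondrial RNA. Ppm1b is a protein phosphatase, Acsl6 activates long-chain fatty acids, Exoc6b is an exocyst subunit and Usp25 is a deubiquitinating enzyme.

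Kdm4c had a lowest value of 0, a median of 0 and a highest value of 3.70 CPM in Smoc2-positive cells, against 0, 0.590 and 953 CPM in Smoc2-negative cells. None of 16 Smoc2-positive cells reached 10 CPM, which allows a share of up to 20.6% by the exact interval, against 8 of 31 Smoc2-negative cells (25.8%, 11.9% to 44.6%). The lower gene was thus strong in a minority of Smoc2-negative cells, and its medians were under 1 CPM in either class. Its log2 ratio was -6.24, and -5.75 and -6.50 in the runs of title numbers.

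Suz12 followed the same form, with 0, 0.155 and 14.5 CPM as the lowest, median and highest values in Smoc2-positive cells, against 0, 0.490 and 526 CPM in Smoc2-negative cells. Cells at 10 CPM numbered 1 among Smoc2-positive and 10 among Smoc2-negative cells, and its log2 ratio was -4.84. Ppm1b had 0, 0.408 and 36.7 CPM in Smoc2-positive cells, against 0, 1.15 and 824 CPM in Smoc2-negative cells, with 1 and 11 cells at 10 CPM and a log2 ratio of -4.68. For all 3 of these genes the bulk of both classes was near 0, and the highest Smoc2-negative cells lay above every Smoc2-positive cell.

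**Figure D3:**
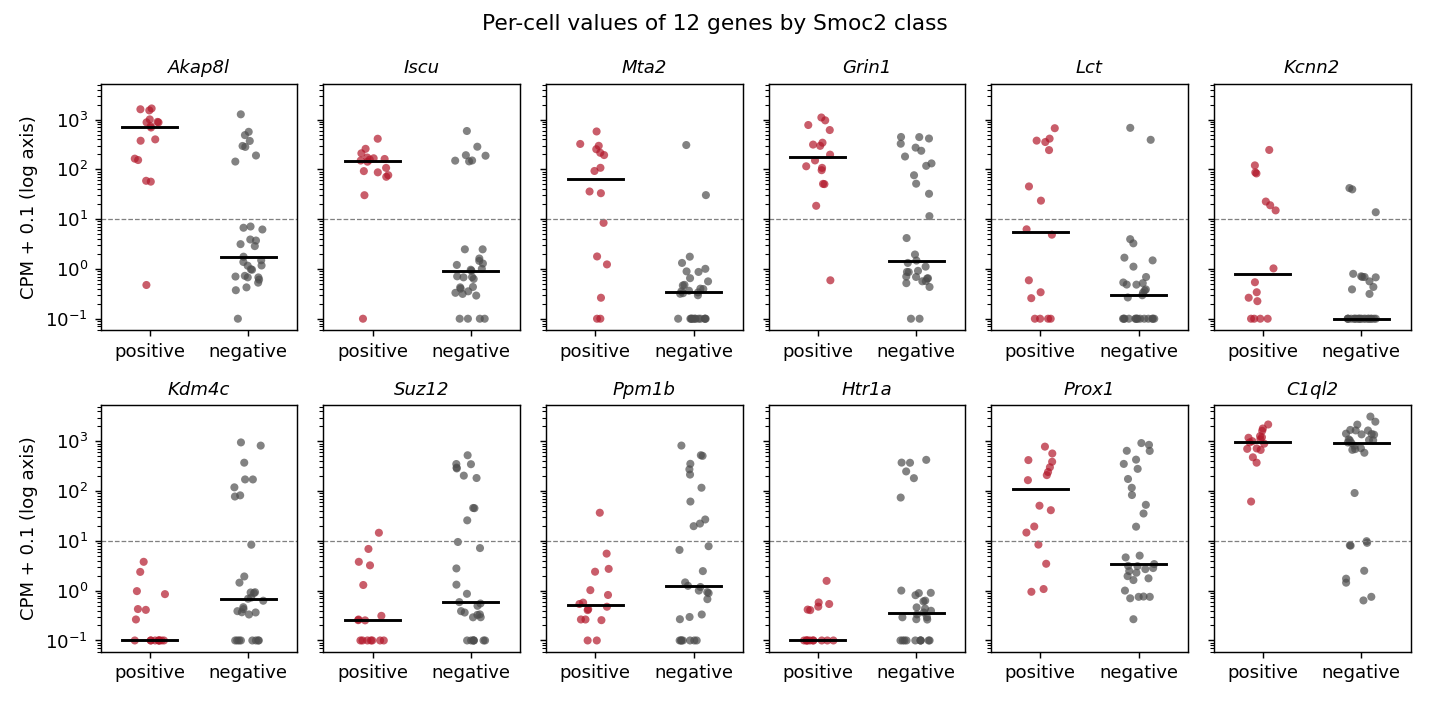
CPM plus 0.1 on a log axis for 12 genes in each EGFP granule cell, by Smoc2 class, with points for cells, lines for medians and a dashed line at 10 CPM. Akap8l reaches 10 CPM in 15 of 16 Smoc2-positive and 8 of 31 Smoc2-negative cells, Kdm4c in 0 and 8, and C1ql2 in 16 and 22.

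Granule cell markers were found in both classes, but a smaller share of Smoc2-negative cells reached 10 CPM of C1ql2 and Prox1. The counts of each gene list below stand beside the 17.96% higher and 13.67% lower of all expressed genes, and a share near those says nothing particular about a list. C1ql2, which encodes a mossy fibre synaptic protein, had 61.7, 981 and 2184 CPM as the lowest, median and highest values in Smoc2-positive cells, against 0.537, 928 and 3149 CPM in Smoc2-negative cells, and the ranges overlapped. It reached 10 CPM in all 16 Smoc2-positive and 22 of 31 Smoc2-negative cells. Calb1, the calcium buffer calbindin whose Cre line labelled the cells, was at 10 CPM or more in all 16 Smoc2-positive and 28 Smoc2-negative cells. Prox1, a homeobox factor required for granule cell identity, stood at 231.1 CPM in Smoc2-positive and 138.4 CPM in Smoc2-negative cells, with 12 and 13 cells at 10 CPM. Slc17a7, the vesicular glutamate transporter VGLUT1, stood at 264 CPM in Smoc2-positive and 353 CPM in Smoc2-negative cells, and Gad1, a GABA-synthesising enzyme also found in granule cells, at 435 and 458 CPM. None of these genes was past 2-fold. The summed granule cell list had medians of 9023 CPM in Smoc2-positive and 9701 CPM in Smoc2-negative cells, with lowest cells of 6647.5 and 2291 CPM. In no cell did the CA1 pyramidal list exceed it. The CA1 list had only 4 expressed members, so that outcome was close to fixed and says little about identity. The highest CA1 sum was 3513 CPM, in a Smoc2-negative cell. Of the granule cell list's 25 expressed members 1 was higher past 2-fold and 5 were lower, with a median log2 ratio of 0.00, and 0 and 3 against the gene-rich Smoc2-negative cells. Among the lower members were Dsp (desmoplakin), with 1 and 4 cells at 10 CPM, and Zfpm2, a GATA cofactor, with 2 and 9 cells and a log2 ratio of -2.37 that was -1.14 against the gene-rich Smoc2-negative cells. Tdo2, a tryptophan-degrading enzyme known in mature granule cells, was the higher member at 72.4 CPM in Smoc2-positive and 23.4 CPM in Smoc2-negative cells, but its log2 ratio of 1.59 was 0.93 against the gene-rich cells.

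Lct, which encodes lactase and is known as a marker of dorsal granule cells, was higher in Smoc2-positive cells. Its lowest, median and highest values were 0, 5.47 and 672 CPM in Smoc2-positive cells, against 0, 0.196 and 684 CPM in Smoc2-negative cells. It reached 10 CPM in 7 of 16 Smoc2-positive cells (43.8%, 19.8% to 70.1%), against 2 of 31 Smoc2-negative cells (6.45%, 0.791% to 21.4%), and all 7 belonged to the 13 cells with Smoc2 only. The log2 ratio of summed reads was 1.57, and it was 0.78 against the gene-rich Smoc2-negative cells. The 2 Smoc2-negative cells with Lct both had Cxcl12. Of the 3 expressed dorsal genes Lct alone was past 2-fold: Gsg1l and Spata13 had log2 ratios of 1.76 and 3.98, but -1.71 and 0.97 when per-cell CPM was averaged without the highest cell of each class. None of the 4 expressed ventral genes was past 2-fold, and their median log2 ratio was -0.18. The ventral list's per-cell sum nevertheless had medians of 138.7 CPM in Smoc2-positive and 11.6 CPM in Smoc2-negative cells. Its highest values ran the other way, at 553.7 and 1092 CPM. The dorsal list's per-cell sum had medians of 22.8 and 0.384 CPM, so a higher median cell was not particular to the dorsal list. Trhr, the thyrotropin-releasing hormone receptor, reached 10 CPM in 7 Smoc2-positive and 6 Smoc2-negative cells, Nr2f2 (the nuclear receptor COUP-TFII) in 7 and 4, Grp (gastrin-releasing peptide) in 2 and 6 and the ephrin ligand gene Efnb2 in 4 and 5. Against the gene-rich Smoc2-negative cells Nr2f2 (log2 ratio 2.78) and Grp (1.67) were higher past 2-fold.

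The glutamate receptor list had 3 members higher and 1 lower of 18 expressed, beside 17.96% and 13.67% of all expressed genes, with a median log2 ratio of 0.02. Grin1, the obligatory subunit of NMDA receptors, had 0.492, 174.5 and 1104 CPM as the lowest, median and highest values in Smoc2-positive cells, against 0, 1.37 and 448 CPM in Smoc2-negative cells. That level of 10 CPM was met by 15 Smoc2-positive and 13 Smoc2-negative cells. Its log2 ratio of 1.43 was 0.82 against the gene-rich Smoc2-negative cells, and that of Grm2, a presynaptic metabotropic receptor, was 1.02 and 0.31. Of 9 expressed GABA-A receptor genes 1 was higher and 1 lower, and 2 and 1 against the gene-rich cells. Gabra4, a subunit of such receptors, had 350.2 CPM in Smoc2-positive and 171.5 CPM in Smoc2-negative cells and a log2 ratio of 1.03 that was 0.87 without the highest cells. Htr1a, an inhibitory serotonin receptor, was the single expressed serotonin receptor gene. No Smoc2-positive cell reached 10 CPM of Htr1a, the highest having 1.47 CPM, against 6 of 31 Smoc2-negative cells with a highest value of 425 CPM. The exact interval for 0 of 16 cells ran up to 20.6%, and that for 6 of 31 from 7.45% to 37.5%. These intervals overlap, which is no test of a difference, and they cover counting error only.

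Of 35 expressed potassium channel genes 3 were higher and 5 lower, beside 17.96% and 13.67% of all expressed genes, with a median log2 ratio of -0.10. Kcnn2, a small-conductance calcium-activated potassium channel, had 0, 0.683 and 246 CPM as the lowest, median and highest values in Smoc2-positive cells, against 0, 0 and 42.04 CPM in Smoc2-negative cells. The cells at 10 CPM numbered 7 of 16 (43.8%, 19.8% to 70.1%) and 3 of 31 (9.68%, 2.04% to 25.8%), and its log2 ratio of 3.88 was 3.27 against the gene-rich Smoc2-negative cells. Kcnd3, an A-type channel subunit, reached 10 CPM in 8 and 5 cells, with a log2 ratio of 2.49. Kcnj2, an inward rectifier, was lower at 62.3 CPM in Smoc2-positive and 157.1 CPM in Smoc2-negative cells, but 7 of 16 and 13 of 31 cells reached 10 CPM. The sodium, calcium and HCN channel list had 1 member higher and 2 lower of 21, and 2 and 3 against the gene-rich cells. Cacna2d1, a calcium channel subunit, had a log2 ratio of 1.11 that was 0.48 against the gene-rich cells. Scn1a, a sodium channel subunit, stood at 27.3 CPM in Smoc2-positive and 141.3 CPM in Smoc2-negative cells, and its log2 ratio of -2.33 was -4.37 in the first run of title numbers and 0.00 in the second. It reached 10 CPM in 7 of 16 Smoc2-positive cells, against 4 of the 13 Smoc2-negative cells with Cxcl12 and 6 of the 18 without it.

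In the list of SMOC and SPARC relatives 6 members were expressed, 1 higher and 1 lower, beside 17.96% and 13.67% of all expressed genes. Spock3, a matrix proteoglycan of that family, stood at 114.1 CPM in Smoc2-positive and 30.3 CPM in Smoc2-negative cells, with 6 and 6 cells at 10 CPM. Its log2 ratio of 1.88 was 1.09 against the gene-rich cells, where it no longer met the rule (0.91 without the highest cells) and the list had no higher member. Fstl1, a secreted glycoprotein, was lower at 5.22 and 48.5 CPM. Sparcl1 (hevin) was abundant in both classes, at 797 CPM in Smoc2-positive and 615 CPM in Smoc2-negative cells, and Sparc rested on few cells, with 2 at 10 CPM in each class. The BMP signalling list had 0 higher and 2 lower of 16 expressed members, and 3 and 3 of 15 against the gene-rich cells. The list of extracellular matrix and integrin genes had 1 higher and 1 lower of 17, and 2 and 3 of 18 against those cells. The chemokine list had 1 higher and 3 lower of 11, and 2 and 3 against them. Its higher member, Gnai1, an inhibitory G protein subunit, reached 10 CPM in 9 and 5 cells with a log2 ratio of 1.55.

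Axon guidance genes had 9 higher and 7 lower of 33 expressed members, beside 17.96% and 13.67% of all expressed genes, and a median log2 ratio of 0.04. Against the gene-rich Smoc2-negative cells the balance turned, with 4 higher and 9 lower of 36. Sema4d, a transmembrane semaphorin, was higher with 3 and 1 cells at 10 CPM. The Eph receptors Ephb1 and Epha3 were lower, with 17.4 and 15.4 CPM in Smoc2-positive cells, against 101.5 and 121.9 CPM in Smoc2-negative cells, though only 2 and 3 cells for Ephb1 and 2 and 4 for Epha3 reached 10 CPM. Cadherins and protocadherins had 3 higher and 3 lower of 22. Pcdh9, a protocadherin, was higher at 158.2 CPM in Smoc2-positive and 42.95 CPM in Smoc2-negative cells.

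The mossy fibre synapse list had 0 higher and 3 lower of 23 expressed members. Syt7, a calcium sensor for vesicle release, was lower at 67.1 CPM in Smoc2-positive and 177.8 CPM in Smoc2-negative cells, but 13 of 16 and 24 of 31 cells reached 10 CPM. The neuropeptide and processing list had 1 higher and 2 lower of 17, and 2 and 3 of 18 against the gene-rich cells. Penk, which encodes proenkephalin, reached 10 CPM in 2 Smoc2-positive and 0 Smoc2-negative cells. Pcsk1, a prohormone convertase, reached it in 1 and 5, and its log2 ratio of -5.24 was -2.16 against the gene-rich cells and -0.81 there without the highest cells. Scg2 (secretogranin II), an abundant granule protein, stood at 1050 and 1125 CPM. Activity-regulated genes had 3 higher and 5 lower of 37, with a median of -0.13, and summed to 23901 CPM in Smoc2-positive and 24379 CPM in Smoc2-negative cells. Of these Inhba, an activin subunit, reached 10 CPM in 0 and 3 cells, and Lingo1, a negative regulator of axon growth, in 4 and 6. Immature neuron genes had 1 higher and 3 lower of 13, and 0 and 1 of 12 against the gene-rich cells. Sox11, a transcription factor of young neurons, stood at 85.7 CPM in Smoc2-positive and 201.3 CPM in Smoc2-negative cells, and its log2 ratio of -1.22 was -0.75 against the gene-rich cells. Its share of cells at 10 CPM was not lower. That level was met by 10 of 16 Smoc2-positive cells, 7 of the 13 Smoc2-negative cells with Cxcl12 and 8 of the 18 without it. Dcx (doublecortin) reached 10 CPM in 0 and 2 cells.

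None of the 22 nuclear genes of oxidative phosphorylation and none of the 8 expressed mitochondrially encoded genes was past 2-fold, and the medians were -0.01 and -0.13. Against the gene-rich Smoc2-negative cells 2 of the 22 were higher past 2-fold. Atp5a1, a subunit of ATP synthase, stood at 1649 CPM in Smoc2-positive and 848 CPM in Smoc2-negative cells. The mitochondrial gene mt-Cytb stood at 2725 and 2969 CPM. Of 11 expressed heat shock genes 2 were higher and 0 lower, and none in either direction against the gene-rich cells or without the 6 cells above 1000 CPM of the microglia list.

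A list of 15 genes, picked from an earlier comparison in which they were lower with the Ascl4 virus and which shares all EGFP GC cells, had 1 member higher (Lct) and 8 lower of 14 expressed. Its median log2 ratio was -2.39, and it is not independent evidence. Ccdc62 reached 10 CPM in 0 Smoc2-positive and 6 Smoc2-negative cells, with a highest value of 6999.99 CPM in 1 of them. Its log2 ratio was -6.90, and -2.74 without the highest cell of each class. Cdk6, a cell cycle kinase picked after its values were seen, stood at 5.66 CPM in Smoc2-positive and 62.5 CPM in Smoc2-negative cells.

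Markers of other cell types moved with the class in a few cells. The microglia list had 15 of 16 expressed members lower past 2-fold and none higher, a median log2 ratio of -3.09 (9 of 16 lower against the gene-rich Smoc2-negative cells), and sums of 205.2 CPM in Smoc2-positive and 1324 CPM in Smoc2-negative cells. Per cell, however, that sum had a lowest value of 12.04, a median of 91.98 and a highest value of 745 CPM in Smoc2-positive cells, against 0.960, 15.5 and 18170 CPM in Smoc2-negative cells. The 6 cells above 1000 CPM were all Smoc2-negative, and the median cell was higher in the Smoc2-positive class. Without those 6 cells the sums over the whole list were 205.2 and 86.9 CPM. Only 7 members then counted as expressed, 3 higher and 1 lower, with a median of 1.66. The medians thus cover different members, and most of the 16 were no longer expressed by the rule. The defining genes Trem2 and P2ry12 reached 10 CPM in 0 Smoc2-positive cells, against 3 and 2 Smoc2-negative cells, and without the 6 cells both stood under 1 CPM in either class. Aif1 reached 10 CPM in 0 and 4 cells and Selplg in 0 and 2. Without the 6 cells Aif1 stayed lower, with a log2 ratio of -4.42, and Selplg was at -0.31. All 15 of the lower genes named above and 12 of the 15 higher ones stayed past 2-fold without these 6 cells, and Iscu (0.97), Fyco1 (0.85) and Mcf2l (0.93) did not. The Smoc2-positive cells were again unchanged, so staying is no separate support. Among the list members named, Tdo2, Cacna2d1, Syt7, Cdk6, Trem2, P2ry12 and Selplg also no longer met the rule without the 6 cells. The SMOC and SPARC, chemokine, and matrix and integrin lists then each had 3 higher and 1 lower, and the mossy fibre list 0 and 1.

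The oligodendrocyte list had 1 higher and 1 lower of 6 expressed members and a median of -1.60. That median was 0.06 without the same 6 cells (5 expressed members) and -0.15 against the gene-rich cells (4 expressed members). Mbp, a myelin gene, stood at 208.2 CPM in Smoc2-positive and 590 CPM in Smoc2-negative cells. The astrocyte list had 3 higher and 1 lower of 12 and a median of -0.20 (0.76 against the gene-rich cells), with Mlc1, an astrocyte membrane protein gene, in 4 and 3 cells. Per cell its sum had a lowest value of 21.2, a median of 576 and a highest value of 14553 CPM in Smoc2-positive cells, against 1.63, 293 and 6193 CPM in Smoc2-negative cells. Ptgds, on the list of meningeal fibroblast markers, had a log2 ratio of 2.77 that was 0.52 without the highest cells, and neither of that list's 2 expressed members was past 2-fold. The list summed to 202.9 CPM in Smoc2-positive and 26.7 CPM in Smoc2-negative cells, with a median log2 ratio of 3.17 and per-cell medians of 2.18 and 0.936 CPM. Its highest cell, at 3538 CPM, was 1 of the 3 with both Smoc2 and Cxcl12, and had 4690 CPM of the astrocyte list. No Cajal-Retzius and no endothelial or mural marker counted as expressed, though that same cell had 239 CPM of the Cajal-Retzius list. The interneuron list had 2 higher and 1 lower of 6, and Pvalb (parvalbumin) reached 10 CPM in 3 Smoc2-positive and 0 Smoc2-negative cells. The CA1 pyramidal list had 1 higher and 2 lower of 4, and Wfs1, known as a CA1 marker, reached it in 4 and 0. Its per-cell sum had medians of 312 CPM in Smoc2-positive and 19.02 CPM in Smoc2-negative cells, while the summed level ran the other way, at 360.3 CPM in Smoc2-positive and 443.4 CPM in Smoc2-negative cells. None of the 4 expressed CA3 and mossy cell markers was past 2-fold. The part of RNA from other cells in any of these gene differences was not tested.

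**Figure D4:**
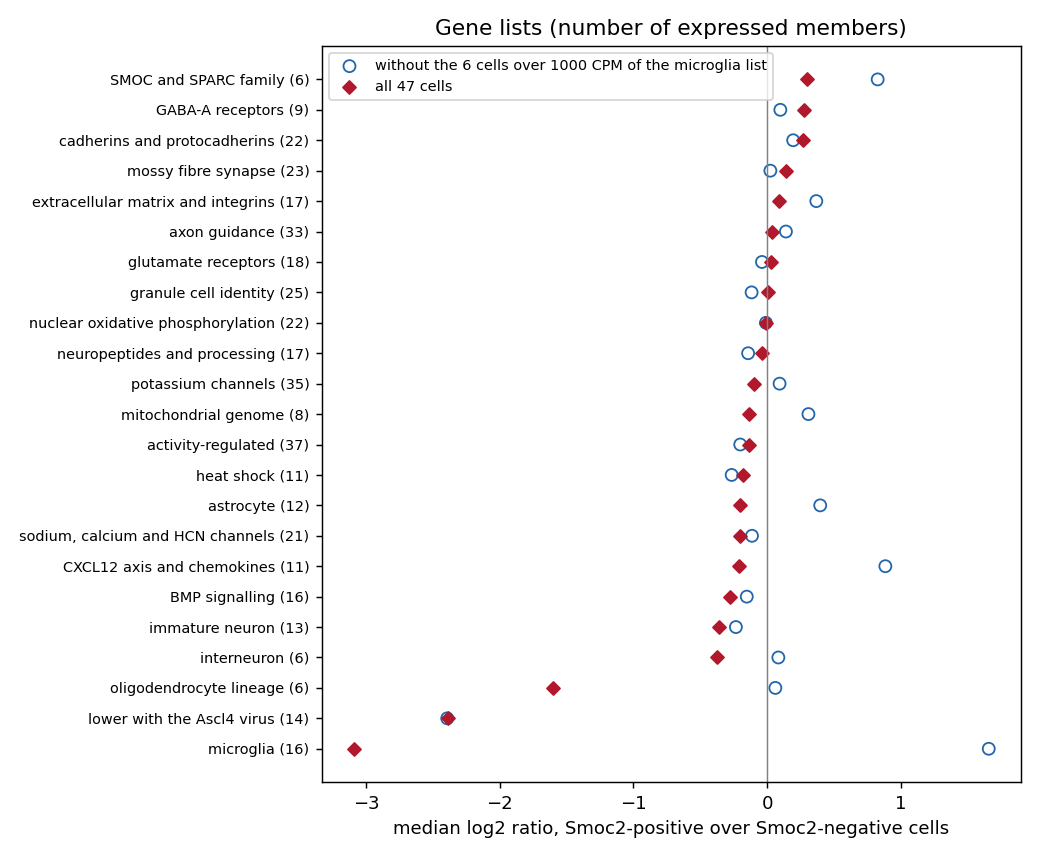
Median log2 ratio of Smoc2-positive over Smoc2-negative cells for each gene list with at least 5 expressed members. Brackets give the number of members expressed with all 47 cells. Red diamonds use all 47 cells. Open circles leave out the 6 cells above 1000 CPM of the microglia list and rest on the members expressed without them. Most lists lie within 0.5 of 0. The microglia list has -3.09 over 16 members with all cells and 1.66 over 7 members without the 6 cells.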

How the data were processed

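RNA of single neurons was sequenced after patch-pipette collection. Per the submitters' processing notes, reads went through STAR and HTSeq on GRCm38.p4; the sources used here do not give versions, settings or strand handling, so reads of overlapping or antisense genes cannot be told apart. The authors deposited gene-level read counts with and without their quality control, whose rules were not given, and a normalized signal in which the authors divided each cell's counts by 1 factor. Counts of the 22870 gene rows were used, without 92 spike-in rows; the signal served as an alternative.

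Cells were classed on their own Smoc2 CPM, summed per class, scaled to 1000000 reads and compared as log2 ratios with a pseudocount of 1 CPM. Intervals are exact Poisson or Clopper-Pearson at 95%, cover counting error only and do not measure spread between animals. Summed reads were 85565498 in Smoc2-positive and 129435761 in Smoc2-negative cells. Levels are not per length, so genes were not ranked against each other. Python 3.11.15 with pandas 2.3.3 and scipy 1.17.1 was used, with edgeR 4.0.16 and DESeq2 1.42.0 for scaling factors alone. The ratios were tested on Poisson counts simulated from a shared profile with known changes. Those counts had no spread between cells beyond depth, so that test checks the calculation and not the calls in these cells.

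The named genes are the 15 higher and 15 lower genes past 2-fold, with the same sign in both runs of title numbers, whose share of cells at 10 CPM differed most. Ribosomal protein and mitochondrially encoded genes, pseudogenes and unnamed gene models were left out. The rule added Cxcl12, Prox1, Calb1, C1ql2, Gad1 and Slc17a7, at most 4 members from each of 31 lists (631 of 633 genes found), and the 5 genes with the largest overlap of cells. The text names fewer list members than the rule took. Those it names were picked after their values, and how often their sign changed between settings, had been seen. A few further genes are not reported here. The classes, lists and tests were chosen with earlier results of these data known. The alternatives were other weights, runs, pseudocounts, scalings, filters, thresholds, class genes, depths and sets of cells. No set test or p-value was computed, and no sequence is printed.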

Additional observations from a re-analysis of the deposited data

Results flagged for a closer look

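Smoc2 also reached 10 CPM in 3 of the 13 EGFP GC cells that the authors' quality control had dropped, which the comparison does not use. Their Smoc2 levels were 13.7, 108.3 and 403 CPM, with 945751, 581674 and 975841 total reads. All 3 had fewer reads than the shallowest kept cell of the Smoc2-positive class, which had 1080049. The lowest of these levels falls in the range between 9.53 and 80.6 CPM that is empty among the kept cells. None of the kept cells of Ascl4 GC, Ascl4 CA1 or EGFP CA1 reached 10 CPM.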

How the results depend on the processing

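The counts of genes past 2-fold, 1723 higher and 1312 lower, changed by over 1.5 times under 5 of 23 alternatives. A pseudocount of 10 CPM gave 1080 and 750, a filter of 50% of cells and 50 CPM 880 and 659, and classing by any Smoc2 read (34 against 13 cells) 2719 and 732. The other contrasts replace the class gene: classes by Cxcl12 gave 980 and 2262, and cells with both genes against neither 1060 and 2428. The 3 alternatives on sets of cells were chosen after seeing the data.

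Cxcl12 kept its negative log2 ratio under the 20 alternatives that class by Smoc2 and keep cells with Cxcl12, and it was not computed without those cells. It was -0.96 and -3.63 in the first and second run of title numbers, -3.09 without the highest cells, -2.49 with a pseudocount of 10 CPM, -2.93 with edgeR and -2.92 with DESeq2 scaling, -3.53 with the authors' normalized signal, -0.65 by any Smoc2 read, -0.79 at 1 CPM of Smoc2, -3.07 without the deepest 10% of cells, -2.66 against gene-rich Smoc2-negative cells and -2.74 without cells rich in microglia markers.

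Scaling moved the median of all genes from 0.06 to -0.04 (edgeR), -0.03 (DESeq2) and -0.29 (authors' normalized signal). Of the 100 genes past 2-fold among all that the naming rule or a later choice took, 39 changed sign under at least 1 of the 21 alternatives that class by Smoc2 (59 changes). Of the 65 such genes named in the text, 17 did (22 changes). The named genes were picked with these changes in view, so their smaller share is no measure of stability.

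Those changes, as log2 ratios, were in the first run Epha3 0.0022, Dcx 0.050, Pvalb -0.24 and Trem2 0.32, and in the second Scn1a 0.0039. By any Smoc2 read they were Iscu -0.18, Rars2 -0.023, Fastkd2 1.84, Exosc3 0.028, Krt9 1.47, Dsp 0.43, Tdo2 -0.065, Fstl1 0.58, Ephb1 1.63, Epha3 3.45, Trem2 5.55, P2ry12 5.31 and Aif1 4.62, with list medians of 1.07 (oligodendrocyte) and 4.61 (microglia). At 1 CPM of Smoc2 they were Fastkd2 2.04, Lingo1 0.17 and Ephb1 1.34. Without cells rich in microglia markers, P2ry12 was at 0.071. The medians were then 0.060 (oligodendrocyte, 5 expressed members) and 1.66 (microglia, 7 expressed members), over fewer members than with all cells. With no expression filter the serotonin receptor median was 0. The cause of these changes was not tested, beyond the cells each setting moves or leaves out.

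Classed by Cxcl12, with Cxcl12-positive cells over the rest, the sign was opposite to that by Smoc2 for many of the named genes, but 20 of the 65 past 2-fold had no sign change under either contrast that uses Cxcl12. Those higher with Smoc2 and lower with Cxcl12 were Iscu -0.41, Akap8l -0.97, Nol7 -1.07, Tsnax -0.69, Sh3gl2 -0.070, Wdr18 -0.029, Trappc1 -1.42, Mcf2l -0.48, Parp6 -0.68, Ints11 -0.10, Mta2 -2.44, Asns -0.39, Tmem199 -0.62, Tdo2 -2.66, Spock3 -0.57, Grin1 -0.91, Grm2 -0.65, Kcnn2 -1.41, Kcnd3 -0.34, Cacna2d1 -0.62, Sema4d -0.90, Pcdh9 -1.07, Wfs1 -0.42, and the dorsal list's median -0.45. Those lower with Smoc2 and higher with Cxcl12 were Ppm1b 0.82, Mga 0.67, Suz12 1.43, Wdr74 0.14, Acsl6 0.37, Fastkd2 1.00, Lrrc42 1.73, Exosc3 0.62, Ankrd16 0.58, Dsp 1.90, Kcnj2 1.25, Pcsk1 0.74, Inhba 2.26, Htr1a 1.82, Scn1a 0.30, Sox11 0.052, Dcx 0.46, Trem2 3.29, P2ry12 6.32, Aif1 0.75, Selplg 1.70, Ccdc62 5.21, and the medians of the serotonin receptor (1.82), oligodendrocyte (0.46), microglia (2.22) and Ascl4-lowered (0.10) lists. With both genes against neither, Tdo2 was at -4.79 and Grm2 at -0.31. The contrasts share cells, since 13 of the 16 Cxcl12-positive cells are Smoc2-negative, so these values are not independent of those by Smoc2.

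No cell had a CA1 sum above its granule cell sum, so leaving such cells out gave no other value. No paired analysis was possible because the classes come from a measured gene and the cells carry no shared replicate numbers. A level near 1 CPM rests on a few reads per cell, and 16 against 31 cells leave wide intervals on every share.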
